A study of Medicago sativa with 12 samples.

Results

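The phytochrome-interacting factors (PIFs) of alfalfa (Medicago sativa), a forage legume that regrows after each cut, were followed through leaf RNA-seq of plants given salt, melatonin or both. A gene model was counted as a PIF when its annotation named a transcription factor PIF, and MS.gene22936 and MS.gene019150, which already meet that rule, were listed by name as well. This gave 23 of the 164632 gene models in the table, of which 4 are annotated as PIF1, 16 as PIF3 and 3 as PIF4. Leaves came from 12 libraries in 4 groups of 3. The M plants (Melatonin treatment) received 50 µM melatonin and the SM plants received 50 µM melatonin with 150 mM NaCl. The S plants received 150 mM NaCl and the CK plants (Normal) nutrient solution alone. All plants were of the cultivar zhongmu 1#, and the labels name leaves as the source and number the replicates without saying which plants went into a library, so p-values measure the spread between these libraries.

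PIFs are basic helix-loop-helix transcription factors that bind G-box and related motifs in promoters. In Arabidopsis, light turns phytochromes into the active form, which binds PIFs and sends them to degradation, so PIF activity is high in darkness and shade. PIF1 holds back seed germination and chlorophyll synthesis in the dark, PIF3 holds back greening of seedlings, and PIF4 drives growth in shade and warmth. DELLA proteins, the repressors of gibberellin signalling, bind PIFs and block them, and BZR1, a factor of brassinosteroid signalling, acts as a partner of PIF4. These roles are known from Arabidopsis, and the alfalfa models carry the names by annotation only.

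For MS.gene019150, the PIF4 model on chromosome 3.3 between positions 36591095 and 36593116 on the plus strand, the primer pair that the study designed for quantitative PCR is printed below. It is shown because this model is one of the 2 listed by name and is described with melatonin further on, and no other sequence of the family was used here. Whether the pair also matches the PIF4 models of chromosomes 3.2 and 3.4 was not tested.
forward primer of MS.gene019150: tgggaatgaccacaccttcg
reverse primer of MS.gene019150: tgtgttggcctacccattttg

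The libraries held between 45862158 and 57192229 estimated counts, and no 2 libraries correlated above 0.862 on the log2(FPKM + 1) scale. FPKM gives fragments per length of transcript and depth of library, and the estimated count is the read number behind it. The leaf label was checked against defining genes, and RuBisCO small chain models summed to 2488 to 11584 FPKM per library, while leghemoglobin, a nodule protein, stayed between 0 and 0.518 FPKM. Chlorophyll a-b binding proteins summed to 24161 to 29680 FPKM in SM and 25371 to 36534 FPKM in S, against 4096 to 21023 FPKM in M and 9357 to 14353 FPKM in CK. This antenna protein sum was therefore higher in every library with salt than in every library without it, and its part in the results below was not tested. In leaf RNA, fewer cells of a type and less RNA per cell cannot be told apart.

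The assembly carries 4 copies of each of 8 chromosomes, named 1.1, 1.2 and so on, and the PIF models follow this layout. Of the 23 models, 14 lie on chromosomes and 9 on unplaced contigs. The PIF1 models lie on chromosomes 1.1, 1.2 (a pair) and 1.3, and the PIF4 models on 3.2, 3.3 and 3.4. Of the PIF3 models, 4 lie on the copies of chromosome 1, 3 on those of chromosome 7 and 9 on contigs. All 23 carry the KEGG term for plant hormone signal transduction, and 16, every PIF3 model and no other, carry the one for circadian rhythm. A mean of at least 1 FPKM over the 12 libraries was reached by 14 models, namely the 4 PIF1, 7 PIF3 and 3 PIF4 models that were tested. Another 6, all PIF3 models on contigs, had no count in any library, and 3 PIF3 models had counts but stayed below the filter. Those 3 had a count in 1 library each, with MS.gene050829 reaching 3.22 FPKM in SM replicate 3 and 0 elsewhere. How reads that match several chromosome copies were shared among the models is not given in the sources used here, so each single model is uncertain to that extent and is given beside the sum of its PIF number.

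PIF4 was the most abundant PIF of these leaves and PIF1 the least. The PIF4 sum averaged 115 FPKM over the 12 libraries, the PIF3 sum 50.5 FPKM and the PIF1 sum 19.99 FPKM. In each library the PIF4 sum exceeded the PIF3 sum, its lowest value being 84.3 FPKM and the highest PIF3 sum 74.0 FPKM. The PIF3 and PIF1 sums came closest in S, where PIF3 lay between 24.0 and 34.3 FPKM and PIF1 between 21.5 and 24.5 FPKM. The most abundant single models were MS.gene46957 of PIF4 with a mean of 55.4 FPKM, MS.gene22936 of PIF3 with 11.2 FPKM and MS.gene059011 of PIF1 with 8.38 FPKM.

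To ask what salt did to PIF3, S and CK were compared first. The PIF3 sum fell to 30.7 ± 5.8 FPKM in S, against 64.4 ± 8.6 FPKM in CK (SD, n = 3 each). Of the 4 PIF3 copies of chromosome 1, 3 had groups that did not overlap, beside 26.5% of all tested models in either direction. In single libraries the PIF3 sum was 34.3, 33.8 and 24.0 FPKM in S, against 57.5, 74.0 and 61.7 FPKM in CK. No S library reached the lowest CK library. The summed counts had a log2 fold change of -1.32 (SE 0.22) with an adjusted p of 0.00483 in edgeR's quasi-likelihood test, a 2.49-fold drop, and it stayed below 0.05 when any of the 6 libraries was left out. Of the 15552 annotation sums tested in the same way, 12.1% had an adjusted p below 0.05.

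MS.gene21084, the PIF3 model of chromosome 1.4 (68257536 to 68260669, minus strand), had the lowest adjusted p of the family in S vs CK. Its FPKM was 3.43, 1.46 and 3.34 in S, against 16.3, 12.6 and 12.6 in CK. All S libraries lay far below all CK libraries. In edgeR it had a log2 fold change of -2.30 (SE 0.38, adjusted p = 0.0263), and the call held in 2 of the 6 fits that left out a library. The adjusted p was 0.0567, 0.0702 and 0.0674 without CK replicates 1, 2 and 3 in that order, and 0.0575 without S replicate 3. MS.gene21084 was the only one of the 14 tested PIF models with an adjusted p below 0.05 in S vs CK, where 1.54% of all 50931 tested models had one, and DESeq2 called 3 members, adding MS.gene22936 and MS.gene20962, beside 10.8% of the models it tested.

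MS.gene22936, the PIF3 model of chromosome 1.2 (58701291 to 58704424, minus strand), is the most abundant PIF3 copy. Its FPKM was 4.95, 6.97 and 6.77 in S, against 19.3, 23.0 and 15.0 in CK. All S libraries lay below all CK libraries, and the log2 fold change of -1.59 (SE 0.35) had an adjusted p of 0.0569 in edgeR. MS.gene20962 on chromosome 1.3 (60420003 to 60423136, plus strand) had 4.89, 5.35 and 4.63 FPKM in S, against 15.5, 9.95 and 14.6 FPKM in CK. Its groups did not overlap either, and its log2 fold change was -1.39 (SE 0.41, adjusted p = 0.130, edgeR). MS.gene005375 on chromosome 1.1 (62964884 to 62968012, plus strand) differed from these copies, since its 1.83, 3.29 and 1.10 FPKM in S overlapped the 0.479, 5.17 and 2.85 FPKM in CK.

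Summed over the 4 copies of chromosome 1, PIF3 had 15.1, 17.1 and 15.8 FPKM in S, against 51.6, 50.8 and 45.0 FPKM in CK. Relative to its mean, the sum varied less within S and within CK than any of the single copies did. Its log2 fold change was -1.65 (SE 0.23, adjusted p = 0.00206, edgeR), where 12.1% of the sums in that table had an adjusted p below 0.05, and it held in all 6 fits that left out a library. This sum by chromosome was added after the data were seen. The PIF3 models of chromosome 7 gave a sum of 11.4 ± 4.3 FPKM in S and 10.1 ± 5.3 FPKM in CK, with a log2 fold change of 0.19 (95% interval -1.36 to 1.74, adjusted p = 0.898, edgeR). The difference between the chromosome 1 and chromosome 7 responses was not tested.

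**Figure D1:**
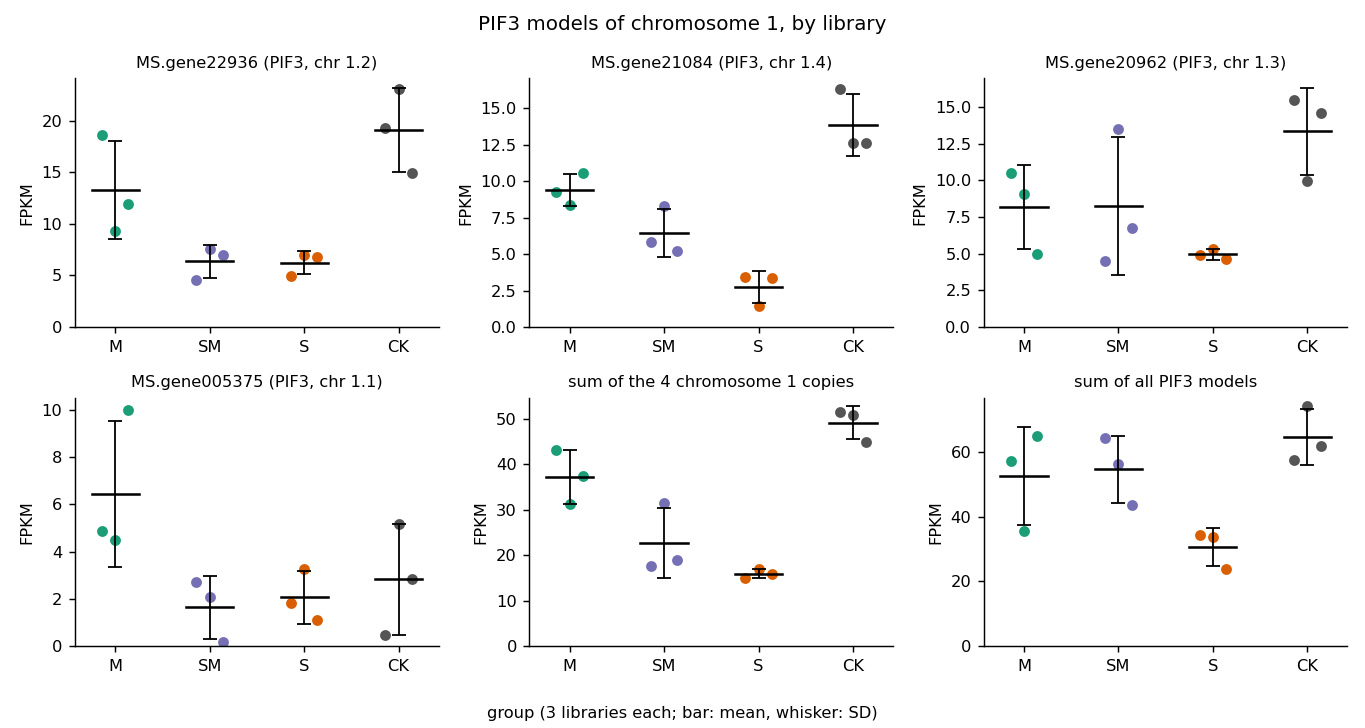
FPKM of the 4 PIF3 models of chromosome 1, of their sum and of the sum over all PIF3 models, with 1 point per library in the groups M, SM, S and CK, the bar at the mean and the whisker at the SD. The chromosome 1 sum lies between 15.1 and 17.1 FPKM in S and between 45.0 and 51.6 FPKM in CK, while MS.gene005375 overlaps between these groups.

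With melatonin added to the salt, all 4 chromosome 1 PIF3 copies had negative log2 fold changes over CK, between -1.60 and -0.70, and the difference between copies was not tested. Their sum fell to 17.6, 31.5 and 19.1 FPKM in SM, against 51.6, 50.8 and 45.0 FPKM in CK. SM replicate 2 stood above the others and still below CK. On the log2 scale the difference was -1.18 (SE 0.23, adjusted p = 0.0147, edgeR), where 7.24% of the sums in that table were called. Without SM replicate 1 the adjusted p was 0.0570 and without SM replicate 3 it was 0.0516. The sum of all PIF3 models averaged 54.6 ± 10.3 FPKM in SM and 64.4 ± 8.6 FPKM in CK, with a log2 fold change of -0.65 (SE 0.22, adjusted p = 0.109, edgeR), while 7.22% of the annotation sums had an adjusted p below 0.05.

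Among the single copies, MS.gene22936 had 4.55, 7.58 and 6.96 FPKM in SM, against 19.3, 23.0 and 15.0 FPKM in CK, a log2 fold change of -1.60 (SE 0.35, adjusted p = 0.0880, edgeR). Its SM and S libraries covered the same range, and SM vs S gave -0.01 on the log2 scale (95% interval -0.77 to 0.75). MS.gene21084 had 5.81, 8.32 and 5.22 FPKM in SM, against 3.43, 1.46 and 3.34 FPKM in S. Every SM library lay above every S library and below every CK library of this copy. Its log2 fold change was 1.19 in SM vs S (SE 0.37, unadjusted p = 0.00932, adjusted p = 0.839, edgeR) and -1.11 in SM vs CK (SE 0.37, adjusted p = 0.233).

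MS.gene28626, the PIF3 model of chromosome 7.2 (4705116 to 4706780, minus strand), ran the other way over CK in SM and also in S. Its FPKM was 9.58, 3.08 and 9.40 in SM, against 1.91, 1.72 and 1.57 in CK. The SM libraries lay above all CK libraries and spread widely among themselves. SM vs CK gave a log2 fold change of 2.08 (SE 0.83, unadjusted p = 0.0314, adjusted p = 0.320, edgeR). In S this model had 7.04, 2.90 and 1.94 FPKM, also above all CK libraries. S vs CK gave a log2 fold change of 1.22 (SE 0.81, adjusted p = 0.535, edgeR). MS.gene072635 on chromosome 7.4 ranged between 2.12 and 27.2 FPKM and the contig model MS.gene23098 between 1.34 and 11.2 FPKM over the 12 libraries, with overlap between SM and CK in both.

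Salt was also compared over both melatonin states, with the 6 libraries of S and SM set against the 6 of M and CK. MS.gene22936 had between 4.55 and 7.58 FPKM with salt (median 6.87), against 9.33 to 23.0 FPKM without salt (median 16.8). MS.gene21084 had between 1.46 and 8.32 FPKM with salt (median 4.32), against 8.39 to 16.3 FPKM without salt (median 11.6). In both copies every library with salt lay below every library without it, which 6.04% of all tested models showed in either direction. Averaged log2 fold changes were -1.32 (SE 0.25) for MS.gene22936 and -1.42 (SE 0.26) for MS.gene21084, each with an adjusted p of 0.0147 in edgeR, and both calls held in all 12 fits that left out a library. These 2 of the 14 members were called, both lower and both also called by DESeq2, beside 6.4% of all tested models in edgeR and 16.7% in DESeq2. The PIF3 sum fell by 0.80 on the log2 scale (SE 0.16, adjusted p = 0.00469, edgeR) and the chromosome 1 sum by 1.20 (SE 0.16, adjusted p = 0.000697), beside 22.5% of sums called in each table. On the FPKM scale, where the short models of chromosome 7 and of the contigs weigh more, limma's test of log2(FPKM + 1) gave the PIF3 sum a change of -0.49 with an adjusted p of 0.0688. From the ratio of counts to FPKM, the transcript lengths of MS.gene28626, MS.gene072635 and MS.gene23098 were 55.7%, 46.3% and 38.6% of that of MS.gene005375, the longest tested PIF3 model. By group, the PIF3 sum averaged 54.6 FPKM in SM and 52.4 FPKM in M, against 30.7 FPKM in S and 64.4 FPKM in CK. For SM vs S its log2 fold change was 0.67 (SE 0.22, unadjusted p = 0.0119, adjusted p = 0.444, edgeR). Its salt responses with and without melatonin differed by 1.02 on the log2 scale (SE 0.31, unadjusted p = 0.00757, edgeR). The adjusted p of that difference was 0.503, so it did not pass the test.

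Melatonin alone did not change PIF3 past the test. The PIF3 sum averaged 52.4 ± 15.1 FPKM in M and 64.4 ± 8.6 FPKM in CK, a log2 fold change of -0.35 (95% interval -0.84 to 0.13, adjusted p = 0.813, edgeR). The chromosome 1 sum was 43.1, 31.3 and 37.5 FPKM in M, against 51.6, 50.8 and 45.0 FPKM in CK. These libraries did not overlap, and the log2 fold change was -0.43 (SE 0.23, adjusted p = 0.752, edgeR). MS.gene22936 had 18.6, 9.33 and 11.9 FPKM in M, against 19.3, 23.0 and 15.0 FPKM in CK, with the highest M library inside the CK range. MS.gene21084 had 9.23, 8.39 and 10.6 FPKM in M, all below the 16.3, 12.6 and 12.6 FPKM in CK, and its log2 fold change was -0.57 (SE 0.37, unadjusted p = 0.151).

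In M vs CK, the PIF4 models differed in the sign of their log2 fold changes, and the difference between them was not tested. MS.gene019150 was higher by the unadjusted test, MS.gene46957 was lower by less than that test asks for, and neither they nor the PIF4 sum passed the adjusted test. MS.gene019150 had 32.8, 33.6 and 15.9 FPKM in M, against 4.41, 9.37 and 9.16 FPKM in CK. All M libraries lay above all CK libraries. This gave a log2 fold change of 1.80 (SE 0.53, unadjusted p = 0.00700), a 3.49-fold difference, and the adjusted p was 0.770 in edgeR. It was the only one of the 14 members past the thresholds of the study's methods, which ask for a more than 2-fold rise or a fall to less than 0.5-fold at an unadjusted p under 0.05. Of all tested models, 4.82% passed them, so 1 of 14 is near the share of all models. No member had an adjusted p below 0.05 in M vs CK in edgeR or in DESeq2, where 0.0118% and 1.71% of all tested models did, and 1 had an unadjusted p below 0.05, beside 5.58% of all models.

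With both treatments, MS.gene019150 covered much the same range as with melatonin alone. It had 15.6, 27.2 and 37.0 FPKM in SM, against 4.41, 9.37 and 9.16 FPKM in CK and 7.14, 20.4 and 7.04 FPKM in S. The SM libraries did not overlap with CK, whereas S replicate 2 lay above SM replicate 1. The log2 fold change was 1.80 in SM vs CK (SE 0.53, adjusted p = 0.184) and 1.16 over S (95% interval -0.01 to 2.33, adjusted p = 0.870) in edgeR. DESeq2's Wald test gave an adjusted p of 0.0258 in SM vs CK, a comparison in which it called 7.53% of all models. Averaged over both salt states, the 6 libraries with melatonin had a median of 30.04 FPKM (15.6 to 37.0) and the 6 without it a median of 8.15 FPKM (4.41 to 20.4). They overlapped through S replicate 2 alone. The average log2 fold change was 1.48 (SE 0.37, unadjusted p = 0.00263, adjusted p = 0.700 in edgeR and 0.0137 in DESeq2, which called 1.83% of all models here), and it lay between 1.33 and 1.83 when 1 library was left out.

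Of the other PIF4 copies, one had lower and one had higher mean levels than CK in M and SM. MS.gene46957 on chromosome 3.2 (37617441 to 37620571, plus strand) had 58.6, 45.9 and 50.7 FPKM in M, 49.8, 55.7 and 28.98 FPKM in SM and 39.6, 56.9 and 40.7 FPKM in S, against 72.9, 92.7 and 72.4 FPKM in CK. Every CK library lay above every library of the other 3 groups. Over CK, the log2 fold change in edgeR was -0.64 for M (SE 0.29, adjusted p = 0.897), -0.83 for SM (SE 0.29, adjusted p = 0.256) and -0.76 for S (SE 0.29, adjusted p = 0.229), and these 3 comparisons share the CK libraries. MS.gene22222 on chromosome 3.4 (39973601 to 39976267, plus strand) ranged between 37.9 and 68.6 FPKM in SM, against 25.6 to 42.6 FPKM in CK, with a log2 fold change of 0.62 (SE 0.33, adjusted p = 0.471). Its log2 fold change was 0.30 in M vs CK (SE 0.33, unadjusted p = 0.378), 0.52 in SM vs S (SE 0.33, adjusted p = 0.971) and 0.41 for melatonin averaged over both salt states (SE 0.23, adjusted p = 0.903), so its sign was that of MS.gene019150 without passing the test.

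**Figure D2:**
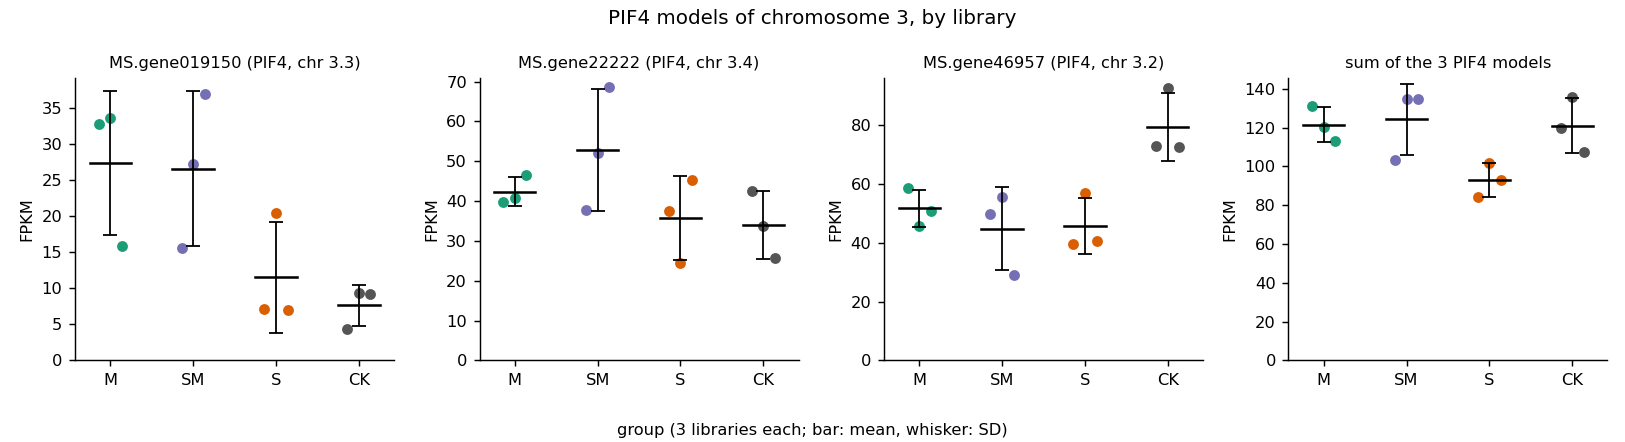
FPKM of the 3 PIF4 models of chromosome 3 and of their sum, with 1 point per library in the groups M, SM, S and CK, the bar at the mean and the whisker at the SD. MS.gene019150 averages 27.4 FPKM in M and 7.64 FPKM in CK, MS.gene46957 averages 51.7 FPKM in M and 79.4 FPKM in CK, and the sum averages 122 FPKM in M and 121 FPKM in CK.

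Summed over its copies, PIF4 gave M and CK means that lay within the spread of their libraries. The PIF4 sum was 131, 120.3 and 113 FPKM in M, 103, 135 and 135 FPKM in SM and 84.3, 102 and 93.0 FPKM in S, against 119.9, 136 and 107 FPKM in CK. S was the only group whose libraries all lay below those of CK. In edgeR the summed counts of M over CK had a log2 fold change of -0.12 (95% interval -0.48 to 0.24, adjusted p = 0.934). SM over CK gave -0.12 (95% interval -0.48 to 0.24, adjusted p = 0.714) and S over CK gave -0.45 (SE 0.16, adjusted p = 0.0994). For S vs CK, DESeq2 gave an adjusted p of 0.0373. Counts weigh a long model more than FPKM does, and the transcript of MS.gene019150 came out at 64.2% of the length of that of MS.gene46957.

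The share of each copy in the summed PIF4 FPKM puts these values on another scale. MS.gene019150 made up 25.04%, 27.9% and 14.1% of PIF4 in M and 15.1%, 20.2% and 27.5% in SM, against 8.47%, 20.1% and 7.57% in S and 3.67%, 6.90% and 8.54% in CK. MS.gene46957 made up 42.5 ± 3.8% in M, 37.0 ± 13.8% in SM and 48.9 ± 6.2% in S, against 65.5 ± 4.1% in CK (SD, n = 3 each). In CK this copy held between 60.8% and 68.3%, above every library of the other groups, whose highest share was 55.8%. Over the 12 libraries, Pearson's r of log2(FPKM + 1) was -0.38 between MS.gene46957 and MS.gene019150, -0.60 between MS.gene46957 and MS.gene22222 and 0.32 between MS.gene019150 and MS.gene22222, given as a description over libraries that share groups. How reads were shared between these copies was not tested.

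**Figure D3:**
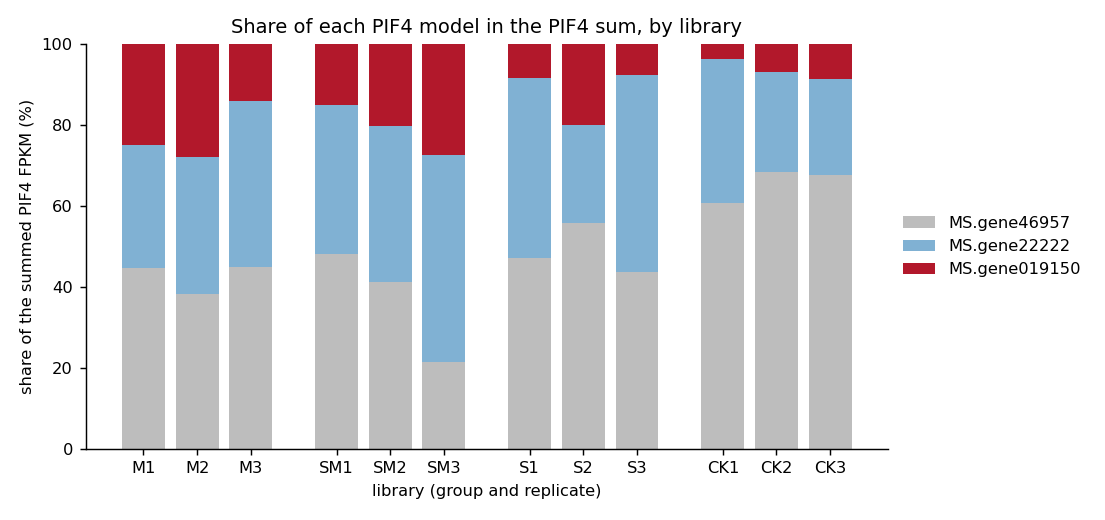
Share of each PIF4 model in the summed PIF4 FPKM of a library, in percent, as stacked bars for the 3 libraries of M, SM, S and CK. MS.gene019150 takes 14.1% to 27.9% in M and 3.67% to 8.54% in CK, and MS.gene46957 takes 60.8% to 68.3% in CK.

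PIF1 did not change past the test in any comparison. The PIF1 sum was 24.5, 21.5 and 23.8 FPKM in S, against 17.4, 14.5 and 21.1 FPKM in CK. All S libraries lay above all CK libraries, and the log2 fold change was 0.37 (95% interval -0.17 to 0.92, adjusted p = 0.362, edgeR). Averaged over both melatonin states, salt gave the PIF1 sum a log2 fold change of 0.40 (SE 0.18, unadjusted p = 0.0424, adjusted p = 0.125, edgeR). With melatonin alone the sum averaged 16.4 ± 4.6 FPKM in M and 17.7 ± 3.3 FPKM in CK.

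Of its copies, MS.gene059011 on chromosome 1.2 was the steadiest member of the family, with 6.60 to 10.6 FPKM over all 12 libraries. MS.gene97692, on the same chromosome copy, had 4.89, 4.73 and 12.2 FPKM in S, against 3.12, 4.39 and 3.69 FPKM in CK, and S replicate 3 set its mean. The log2 fold change of 0.999 (SE 0.46, adjusted p = 0.327, edgeR) lay between 0.37 and 1.23 when 1 library was left out. MS.gene038012 on chromosome 1.1 had no count in 5 of the 12 libraries and reached 9.93 FPKM in SM replicate 1, so its fold changes carry intervals of several log2 units and are not given.

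**Figure D4:**
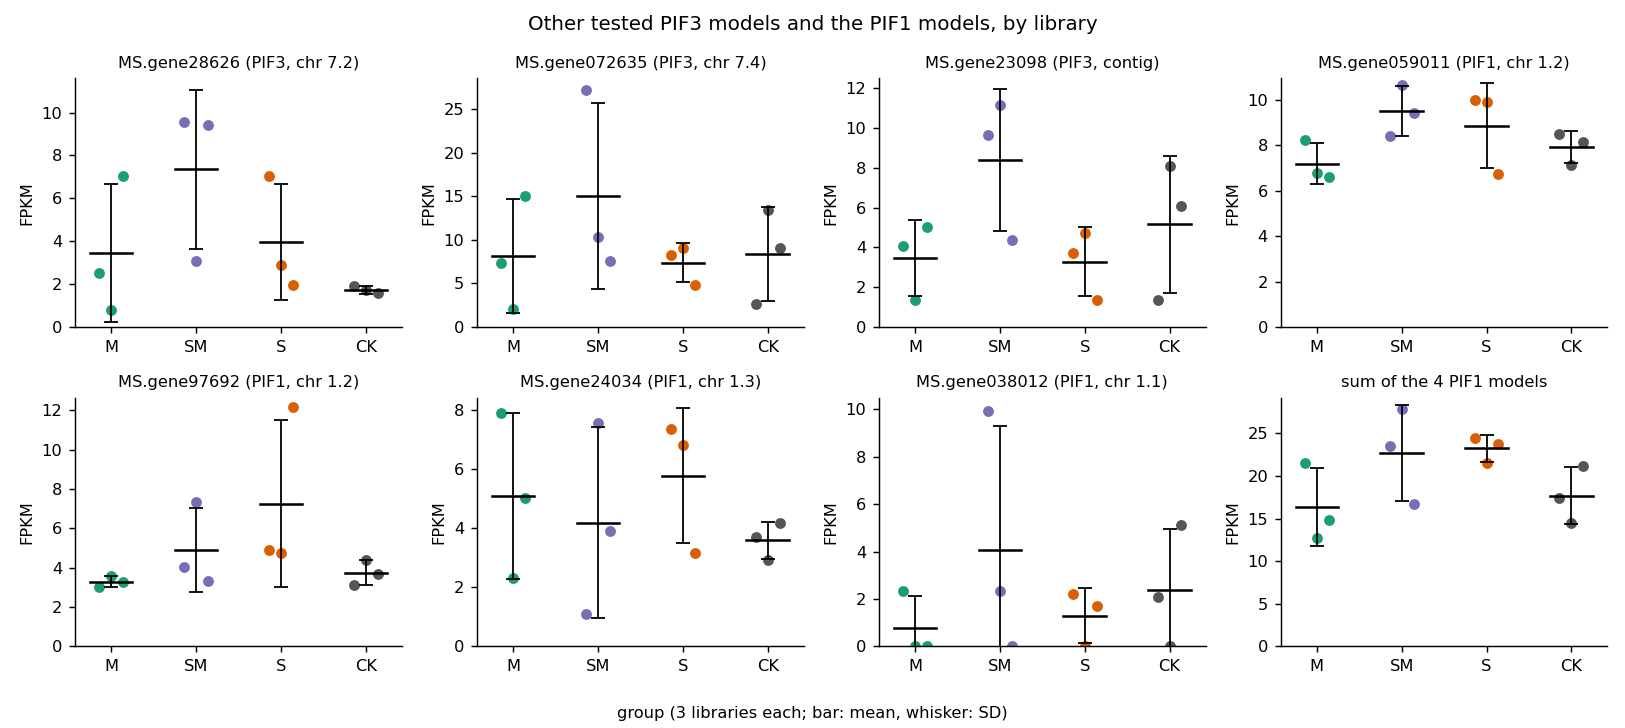
FPKM of the tested PIF3 models outside chromosome 1, of the 4 PIF1 models and of the PIF1 sum, with 1 point per library in the groups M, SM, S and CK, the bar at the mean and the whisker at the SD. MS.gene28626 lies between 3.08 and 9.58 FPKM in SM and between 1.57 and 1.91 FPKM in CK, while MS.gene059011 stays between 6.60 and 10.6 FPKM throughout.

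Counted over the family, the comparisons of S and of SM with CK had the most members past the study's thresholds. In M vs CK, 2 of the 14 members (MS.gene21084 and MS.gene46957) had all M libraries below CK and 1 (MS.gene019150) had all above, beside 14.4% of all tested models apart in either direction. In S vs CK, 3 members passed the thresholds, all lower, beside 14.2% of all models, and 6 had groups that did not overlap (4 lower, 2 higher), beside 26.5%. In SM vs CK, 4 members passed the thresholds, MS.gene019150 and MS.gene28626 higher and MS.gene21084 and MS.gene22936 lower, beside 11.6% of all models, and 5 did not overlap (3 lower, 2 higher), beside 24.8%. No member had an adjusted p below 0.05 in SM vs CK in edgeR, where 0.342% of all models did and 5 members had an unadjusted p below 0.05, beside 13.2% of all models. DESeq2 called 3 members there, beside 7.53% of all models. In SM vs S, MS.gene21084 alone passed the thresholds and alone did not overlap, beside 4.77% and 12.2% of all models. No member was called there in edgeR or DESeq2, where edgeR called 0.0177% and DESeq2 1.63% of all models, and 1 member had an unadjusted p below 0.05, beside 5.76% of all models.

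For melatonin averaged over both salt states, MS.gene019150 alone passed the thresholds (3.85% of all models did), no member was called in edgeR (0.0216% of all models were) and 1 had an unadjusted p below 0.05, beside 6.06% of all models. DESeq2 called this 1 member, beside 1.83% of all models. For salt averaged over both melatonin states, MS.gene21084 and MS.gene22936 passed the thresholds, beside 16.0% of all models. The melatonin by salt interaction asks whether the response to melatonin differs with and without salt. MS.gene21084 and MS.gene20962 passed the thresholds there, beside 5.99% of all models, and 2 members had an unadjusted p below 0.05, beside 6.17%. No member was called in edgeR or DESeq2, which called 0.0275% and 1.93% of all models. The interaction terms of MS.gene21084 and MS.gene20962 were 1.76 (SE 0.52, adjusted p = 0.704) and 1.44 (SE 0.58, adjusted p = 0.779) on the log2 scale.

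**Figure D5:**
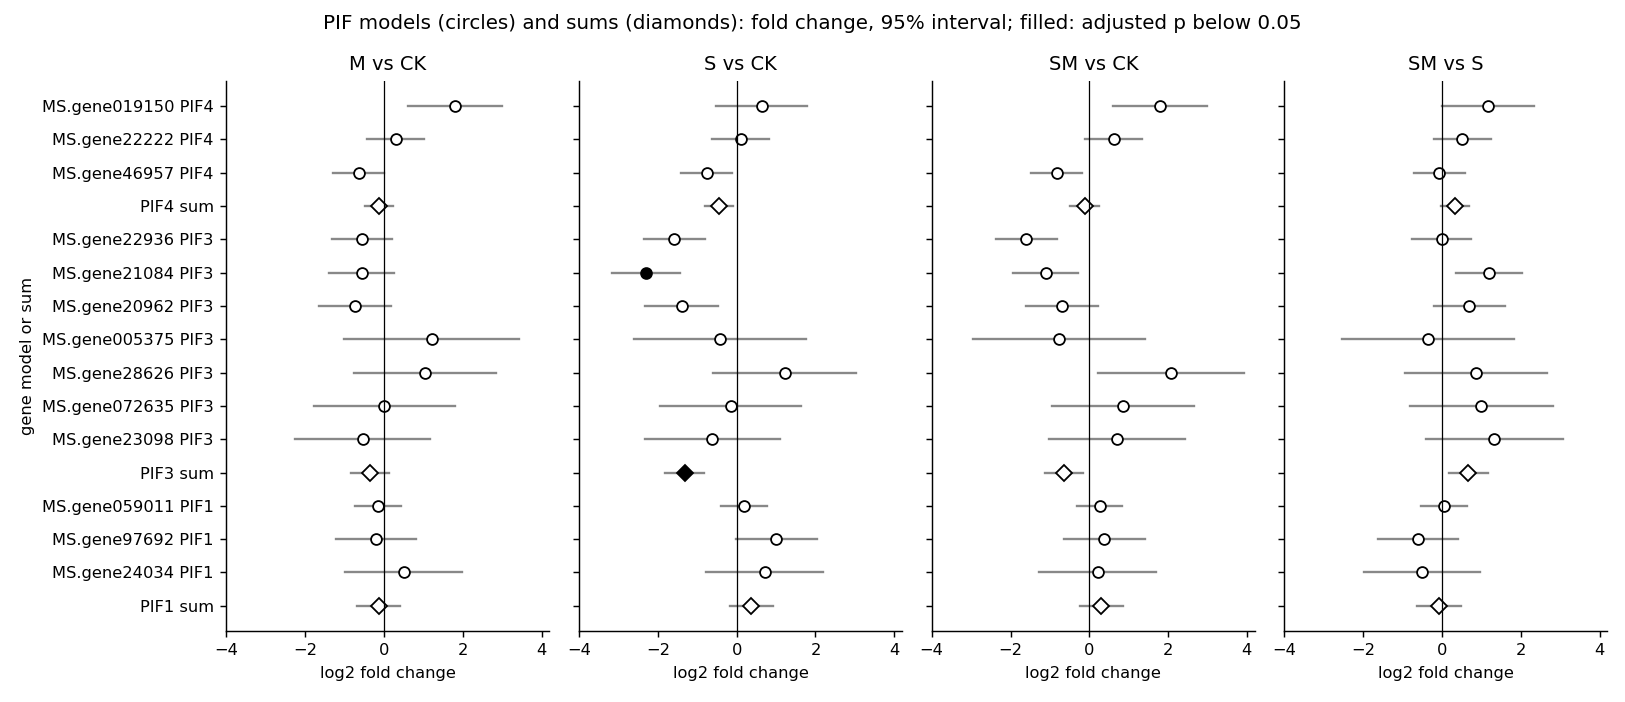
Log2 fold changes with 95% intervals of 13 tested PIF models (circles) and of the PIF4, PIF3 and PIF1 sums (diamonds) in 4 panels (each treatment over CK, then SM over S), filled where the adjusted p was below 0.05 in edgeR. MS.gene21084 at -2.30 and the PIF3 sum at -1.32 are filled in S vs CK, no marker is filled elsewhere, and MS.gene038012 is left out because its interval runs past the axis.

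Copies and sums did not always share a direction. In S vs CK, 6 of the 7 tested PIF3 models had a negative log2 fold change, as their sum did, with values between -2.30 and 1.22. In SM vs CK, 4 of 7 did, with values between -1.60 and 2.08. For PIF4, 1 of the 3 models had the direction of the sum in each comparison with CK, and it was MS.gene46957, the most abundant copy. Over the 14 tested members the median log2 fold change was -0.28 in S vs CK, beside 0.05 over all tested models, and 0.32 in SM vs CK, beside 0.04.

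Genes that act around PIFs were counted from lists of annotation words, with salt averaged over both melatonin states as the comparison in which 6.4% of all tested models were called. Of the light receptors, none of the 10 tested phytochrome models and none of the 12 cryptochrome models had an adjusted p below 0.05 (edgeR). The phytochrome list includes F-box proteins named for phytochrome A. Phytochrome A model MS.gene20953 averaged 15.4 FPKM in SM and 12.9 FPKM in S, against 19.98 FPKM in M and 23.5 FPKM in CK, with a log2 fold change of -0.62 (SE 0.27, adjusted p = 0.212). Of 29 tested models named for COP1 or SPA, which form a ubiquitin ligase of light signalling in Arabidopsis, 2 rose, both SUPPRESSOR OF PHYA-105 1 models. MS.gene95302 averaged 5.68 FPKM in SM and 8.35 FPKM in S, against 1.49 FPKM in M and 1.65 FPKM in CK (adjusted p = 0.0120, edgeR). The median log2 fold change of the COP1 and SPA list was -0.17, beside 0.03 over all tested models, so these 2 do not give the direction of the list. Of 11 tested B-box zinc finger models, 2 rose, both annotated as B-box zinc finger protein 24, and MS.gene056387 averaged 80.7 FPKM in SM and 110.6 FPKM in S, against 25.9 FPKM in M and 31.6 FPKM in CK (adjusted p = 0.00539).

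Hormone partners of PIFs were counted in the same salt average. With 6.4% of all tested models called there, few calls are due in lists of this size. None of the 22 DELLA models, of the 5 HY5 models and of the 3 models of the auxin-responsive IAA19 and IAA29 list reached the filter, and none of the 15 tested gibberellin receptor and F-box models or the 11 BES1/BZR1 homolog models was called. The gibberellin list had a median log2 fold change of -0.58, beside 0.03 over all tested models, and GID1c-like receptor model MS.gene07155 averaged 30.9 FPKM in SM and 37.5 FPKM in S, against 49.3 FPKM in M and 62.1 FPKM in CK (adjusted p = 0.0769). Of 16 tested models of proteins that act on PIF3 stability in Arabidopsis, 2 fell, both EIN3-binding F-box protein 1, which also removes the ethylene factor EIN3. MS.gene015986 averaged 11.04 FPKM in SM and 15.2 FPKM in S, against 44.8 FPKM in M and 55.6 FPKM in CK, with a log2 fold change of -1.92 (SE 0.23, adjusted p = 0.00291, edgeR).

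Of 51 tested clock models, 5 rose in the salt average, beside 6.4% of all tested models called in either direction. The 3 with the lowest p were pseudo-response regulators. The APRR9 model MS.gene013498 averaged 31.6 FPKM in SM and 49.0 FPKM in S, against 17.9 FPKM in M and 18.2 FPKM in CK (log2 fold change 1.14, SE 0.23, adjusted p = 0.0198, edgeR). Of 29 tested chlorophyll and carotenoid models, 9 were called higher and none lower in edgeR. By the study's thresholds 11 were higher and 1 was lower, beside 16.0% of all models past them. The list had a median log2 fold change of 1.19, beside 0.03 over all tested models. The class holds genes that PIF1 and PIF3 repress in Arabidopsis, and whether the models named here are such targets was not tested. Protochlorophyllide reductase MS.gene031393, which makes chlorophyllide in the light, averaged 126 FPKM in SM and 335 FPKM in S, against 46.6 FPKM in M and 27.0 FPKM in CK (log2 fold change 2.56, SE 0.30, adjusted p = 0.00276). Phytoene synthase MS.gene26193, the entry enzyme of carotenoid synthesis, averaged 14.7 FPKM in SM and 25.2 FPKM in S, against 1.55 FPKM in M and 2.40 FPKM in CK (log2 fold change 3.31, SE 0.50, adjusted p = 0.00628). The chlorophyll a-b binding protein sum given above moved with salt in the same direction as these genes. Whether any of these levels depend on PIF levels was not tested.

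Of 19 tested homeobox-leucine zipper class II models, 3 fell with salt, beside 6.4% of all tested models called in either direction. The class holds genes that PIFs induce in shade in Arabidopsis. All 3 are annotated as HAT22, and whether HAT22 is such a PIF target was not tested. MS.gene011683 averaged 10.6 FPKM in SM and 4.87 FPKM in S, against 36.4 FPKM in M and 21.1 FPKM in CK (log2 fold change -1.90, SE 0.39, adjusted p = 0.0212, edgeR). The most abundant model of the list, HAT4 model MS.gene21216, had a log2 fold change of 0.06 (SE 0.54). None of the 7 tested YUCCA models of auxin synthesis was called. In S vs CK, 3 chlorophyll and carotenoid models, 2 B-box models, 1 SPA model and 1 cryptochrome-1 model rose and 1 EIN3-binding F-box model fell, beside 1.54% of all models called. In SM vs CK, the EIN3-binding F-box model MS.gene015986 fell (log2 fold change -2.34, SE 0.33, adjusted p = 0.0313, edgeR) and no other listed model was called, beside 0.342% of all models. No listed model was called in edgeR for M over CK, SM over S or the melatonin average, where 0.0118%, 0.0177% and 0.0216% of all models were.

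The models whose levels most resembled those of the 2 listed PIFs were taken by Pearson's r of log2(FPKM + 1) over the 12 libraries. The search covered all tested models with an annotation outside the PIF family. For MS.gene22936 these were malate synthase MS.gene79710 (r = 0.947), potassium transporter 1 MS.gene54170 (r = 0.943), BES1/BZR1 homolog protein 4 MS.gene059906 (r = 0.941), cysteine-rich repeat secretory protein 12 MS.gene020502 (r = 0.937) and actin-depolymerizing factor 5 MS.gene003534 (r = 0.936). For MS.gene019150 the values were lower, with a TRAPP II complex protein MS.gene069037 at 0.887, a transmembrane protein MS.gene21501 at 0.885, DEFECTIVE IN MERISTEM SILENCING 3 model MS.gene06922 at 0.880, FLUORESCENT IN BLUE LIGHT model MS.gene89159 at 0.876 and TMV resistance protein N model MS.gene94690 at 0.874. FLUORESCENT IN BLUE LIGHT holds back chlorophyll synthesis in Arabidopsis. These values describe the libraries, which share groups, and were the highest among the tested models with an annotation outside the PIF family.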

How the data were processed

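Leaf RNA of 12 alfalfa libraries (CK, M, S and SM, 3 each) was sequenced on an Illumina NovaSeq. Per the study's methods and the submitters' notes, the authors trimmed reads with cutadapt, mapped them with HISAT2 2.0.4 and assembled and quantified transcripts with StringTie. The genome build and the treatment of multiply mapped reads are not given in the sources used here. The authors deposited FPKM (0.0001 where the count is 0, read here as 0) and an estimated count per gene model, already whole numbers. Totals ranged from 45862158 to 57192229 per library, and every row names a gene.

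The estimated counts were tested with edgeR 4.0.16 (quasi-likelihood, TMM, R 4.3.3) in 1 fit over the 12 libraries for the 50931 models with a mean of at least 1 FPKM, with Benjamini-Hochberg adjustment over all of them. "Called" means an adjusted p below 0.05. SE is the log2 fold change over the square root of F. The same test was run on counts summed over models of equal annotation, PIF models by PIF number, and, added later, by chromosome. DESeq2 1.42.0, limma 3.58.1, other filters, a replicate block and leaving out libraries were alternatives. An exact permutation test of 3 against 3 cannot give a p below 0.1 and was not used. Members, lists and tests were chosen with earlier results of these data known. Named with values were the 2 listed models, the most abundant model of each PIF number, every member called or past the study's thresholds, and, from each list, up to 4 models by abundance and by p in the salt average.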

Additional observations from a re-analysis of the deposited data

Results flagged for a closer look

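In 2 results the M libraries all lay on one side of CK and the SM libraries all on the other side of S. None of these comparisons passed the adjusted test in edgeR. The share of all tested models whose groups did not overlap, in either direction, was 14.4% for M over CK and 12.2% for SM over S. The share with both patterns together was not counted, so how unusual these results are cannot be judged. For MS.gene21084, the PIF3 model of chromosome 1.4, all M libraries (8.39 to 10.6 FPKM) lay below CK (12.6 to 16.3 FPKM), while all SM libraries (5.22 to 8.32 FPKM) lay above S (1.46 to 3.43 FPKM). The difference between the responses was 1.762 on the log2 scale, with an unadjusted p of 0.00700 and an adjusted p of 0.704 in edgeR, so it did not pass the test over all models. For the sum of the chromosome 1 PIF3 models, M (31.3 to 43.1 FPKM) lay below CK (45.0 to 51.6 FPKM) and SM (17.6 to 31.5 FPKM) above S (15.1 to 17.1 FPKM). Its difference was 0.89 on the log2 scale, with an unadjusted p of 0.0188 and an adjusted p of 0.532. The 2 results are not separate, since the sum holds MS.gene21084.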

How the results depend on the processing

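The study's thresholds without adjustment moved the count of called members in 6 comparisons, DESeq2 in 3 and leaving out a library in 1. In S vs CK, 1 member was called, against 3 with DESeq2, 2 with limma at either pseudocount, 3 by the study's thresholds and 0 in a fit on the 6 libraries alone. The share of all models called moved too, from 1.54% to 10.8% with DESeq2, 4.58% and 3.94% with limma on log2(FPKM + 1) and log2(FPKM + 0.1), 14.2% by the thresholds and 0% in the fit on 6 libraries. In SM vs CK the count of 0 became 3 with DESeq2, 1 with limma on log2(FPKM + 1) and 4 by the thresholds, beside 0.342% of all models in edgeR, 7.53%, 2.21% and 11.6%. The thresholds gave 1 member for M over CK, 1 for SM over S, 1 in the melatonin average and 2 in the interaction, and DESeq2 gave 1 in the melatonin average. In S vs CK, leaving out a library gave 0 to 1 calls, and 0 came without CK replicates 1, 2 or 3 and without S replicate 3. Replicate numbers did not pair the libraries (18 same-numbered pairs, r between -0.082 and 0.045, 0 of them over 0.1), and 3 of 12 libraries correlated best with their own number. With a replicate block, S vs CK called 0 members and the salt average 2. Under the block the PIF3 sum in S vs CK was -1.32 (adjusted p = 0.0151).

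The chromosome 7 models alone turned the PIF3 sum over CK to 0.271 for M, 0.188 for S and 1.132 for SM and the salt average to 0.524, and the contig models alone gave -0.626 for S, 0.816 for SM and a salt average of 0.372. The chromosome 1 models alone gave -1.185 in SM vs CK, past the threshold. DESeq2 put the PIF3 sum in SM vs CK (-0.651) and the PIF4 sum in S vs CK (-0.443) past the threshold. With limma the PIF3 sum in the salt average was -0.486 and -0.496 and no longer passed, and the PIF4 sum over CK turned to 0.011 for M and 0.034 for SM. Leaving out libraries moved the PIF1 sum between -0.352 and 0.054 for M over CK, between -0.242 and 0.108 for SM over S and between -0.121 and 0.276 for the interaction. The cause of these moves was not tested. MS.gene038012 had no count in 5 libraries and 180 to 1068 in each of the others.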
